A study of Brassica napus with 30 samples.

Results

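The 200 gene models described here share a course through germination in oilseed rape (Brassica napus): in both genotypes sampled they stood high in seeds imbibed for 8 h at 25 °C and in seeds imbibed for 36 h at 8 °C, and low in dry seeds, early in the cold (8 h at 8 °C) and late in the warm (36 h at 25 °C). Seeds kept at 25 °C are called warm below and those kept at 8 °C cold. The members were chosen by their measured levels, the group means in CPM, the usual normalised read count, in which each count is scaled to the total of its library. The score of a gene model was the log2 ratio of its lower peak, out of 8 h 25 °C and 36 h 8 °C, to its highest low group, each plus 1 CPM, in the genotype where that ratio was smaller. Of 100919 gene models, 18840 held at least 5 CPM in both peak groups of both genotypes with the peaks within 2-fold of each other, 424 of these had a score of at least 1, and the 200 with the highest scores were kept. The peak itself, and every fold between a peak and a low group, is therefore a description and not a finding.

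The genotypes JY1605 and JY1621 were each sampled dry, and imbibed for 8 h or 36 h at either temperature, which gave 10 groups of 3 libraries. No other treatment is named in the labels. Each RNA sample came from 100 seeds. Zeitgeber time at sampling was 0 for the dry groups, 8 for all groups imbibed for 8 h and 12 for all those imbibed for 36 h. Total counts ran from 14250480 to 78251632 per library, and the library next to the deepest one, replicate 1 of JY1621 in 36 h warm seeds, held 35172867. Correlations of log2 CPM between libraries of a group were 0.972 to 0.99.

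A dry seed holds messenger RNA stored during maturation. When it takes up water, respiration, repair and protein synthesis restart, a plateau of metabolic preparation follows, and the emergence of the radicle then completes germination; transcripts of the preparation phase can rise and fall again before seedling growth. Low temperature slows this sequence. Whole seeds hold embryo, remaining endosperm and seed coat together, so that fewer cells of a type and less RNA per cell cannot be told apart in these data. None of the 200 IDs, and none of the others, matched the gene table of the Da-Ae assembly used here, so gene models are given by ID, chromosome or rank, and neither functions nor tissue markers could be read from them.

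Summed over the 200 gene models, the level at both peaks was several-fold that of the low groups, as the rule requires. In JY1605 the 3 dry libraries held 3001, 2888 and 2842 CPM, and those of 8 h cold seeds held 3524, 3401 and 3448 CPM. The libraries of 8 h warm seeds held 15762, 15399 and 15386 CPM, and those of 36 h cold seeds held 20335, 19234 and 20046 CPM. In 36 h warm seeds the sum was back at 2363, 2575 and 2526 CPM, below every dry library of that genotype. JY1621 held 2403, 2496 and 2562 CPM in dry seeds and 3904, 4123 and 3663 CPM in 8 h cold seeds. Its peaks held 14816, 15803 and 14733 CPM in 8 h warm seeds, and 18124, 18381 and 18733 CPM in 36 h cold seeds. In 36 h warm seeds it held 5202, 4287 and 5058 CPM, above every JY1605 library of that condition and above every dry library of its own. As a share of the summed level in 8 h warm seeds, the 36 h warm seeds stood at 16.04% in JY1605 and 32.1% in JY1621, a ratio within each genotype that also holds on the TMM scale defined below (16.2% and 32.5%). The shares of the other low groups depend on the scaling. On the TMM scale dry seeds moved from 18.8% to 29.8% in JY1605 and from 16.4% to 23.5% in JY1621. The 8 h cold seeds moved from 22.3% to 32.9% in JY1605 and from 25.8% to 32.0% in JY1621.

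**Figure D1:**
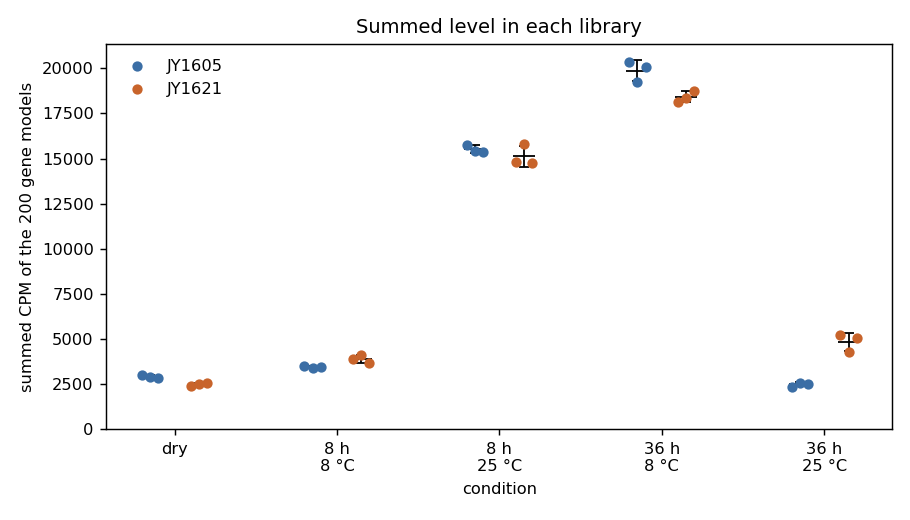
Summed level of the 200 gene models, in CPM, in each of the 30 libraries. Points are libraries, and bars give the mean ± SD of 3; the lowest peak library holds 14733 CPM, and at 36 h and 25 °C the JY1621 libraries lie above those of JY1605.

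The members spanned a wide range of levels, which are not corrected for transcript length and so do not rank them. Group means in 8 h warm seeds ran from 5.59 to 579.8 CPM in JY1605, with a median of 40.2, and from 5.80 to 849 CPM in JY1621, with a median of 39.1. In 36 h cold seeds the medians were 48.8 and 49.0 CPM. In dry seeds they were 7.71 and 6.85 CPM, in 8 h cold seeds 8.51 and 11.1 CPM, and in 36 h warm seeds 7.29 and 13.0 CPM. No member was without counts in any group; the fewest over the 3 libraries of a group was 6. The spread between libraries was wider in the low groups: the median coefficient of variation was 10.7% to 12.1% there and 4.94% to 6.52% in the peak groups. For all 200 members in JY1605 and 199 in JY1621, every peak library lay above every low library. The rule makes this likely, since it chose members by peak means above low means. The share over all gene models was not counted.

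**Figure D2:**
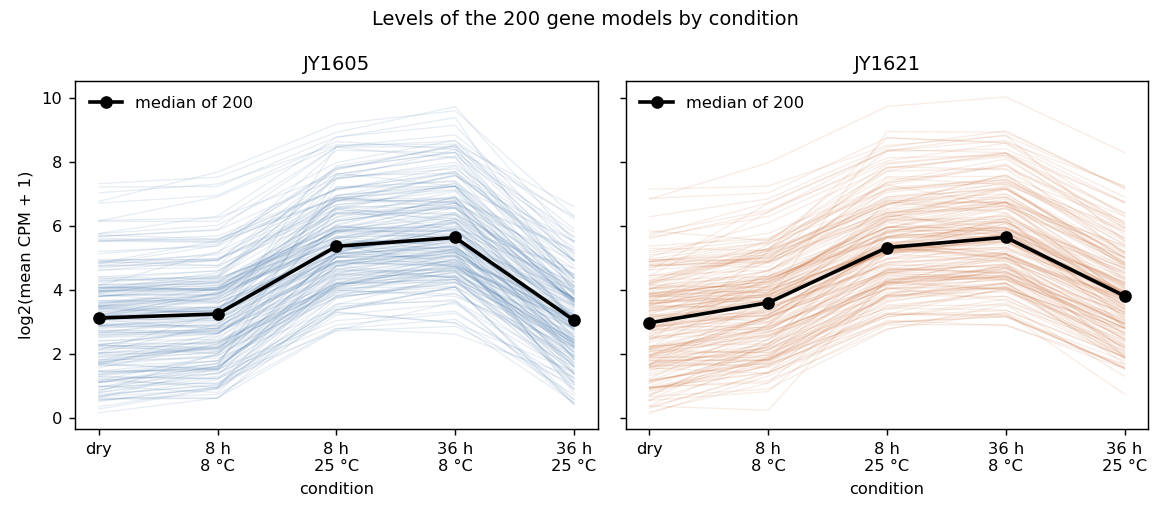
Level of each of the 200 gene models by condition, as log2 of the group mean CPM plus 1, for JY1605 (left) and JY1621 (right), with the median in black. The peak groups stand between the low groups and the order is not one of time; the median returns to the dry-seed level at 36 h and 25 °C in JY1605 and stays above it in JY1621.

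The 2 peak groups were not equally high. They are peaks only among the conditions sampled: no cold seeds were sampled after 36 h, so a later fall in the cold was not seen. Warm seeds were sampled only at 8 h and 36 h, and the highest levels may lie at other times. The level in 36 h cold seeds was above that in 8 h warm seeds for 158 members in JY1605 and 151 in JY1621. On the log2 scale the ratio of the 2 had a median of 0.35 in JY1605 (quartiles 0.03 and 0.58). In JY1621 its median was 0.26 (quartiles 0.01 and 0.52). The rule held these ratios within 1 in either direction. On the scale of TMM factors, which correct for the composition of a library, the medians were 0.46 and 0.28, and 173 and 156 members were above.

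Which of the low groups was highest, and so set the score, differed between the genotypes. In JY1605 it was 36 h warm seeds for 86 members, 8 h cold seeds for 85 and dry seeds for 29. In JY1621 it was 36 h warm seeds for 138, 8 h cold seeds for 59 and dry seeds for 3. With TMM-scaled levels these counts became 45, 94 and 61 for JY1605, and 87, 86 and 27 for JY1621. The score was the smaller one in JY1621 for 167 members. The median fold of the lower peak over 36 h warm seeds, each plus 1 CPM, was 4.96 in JY1605 and 2.75 in JY1621, and over dry seeds it was 4.80 and 4.97. With TMM-scaled levels the folds over 36 h warm seeds were 4.91 and 2.70, and those over dry seeds 3.30 and 3.57.

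Scores ran from 1.20 to 2.45, with a median of 1.35. The last member, at rank 200 and on A06, scored 1.198, with 23.1 ± 0.593 and 23.5 ± 0.845 CPM at its peaks in JY1605 (SD, n = 3) and 26.6 ± 1.59 and 25.0 ± 2.03 CPM in JY1621, against at most 7.17 and 10.3 CPM in their low groups. The first gene model left out, on C03, scored 1.196, with 16.2 ± 1.02 and 27.7 ± 2.59 CPM in JY1605 and 10.99 ± 1.60 and 13.5 ± 1.44 CPM in JY1621. Its highest low groups held 6.49 and 4.13 CPM. The values on both sides of the limit are thus alike.

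BnaA09G0547100ZS, on A09, had the highest score, 2.45. In JY1605 it held 0.357, 0.331 and 0.140 CPM in the dry libraries, 1.48, 0.566 and 0.722 CPM in 8 h cold seeds, and 0.362, 1.09 and 1.21 CPM in 36 h warm seeds. Its peak libraries held 29.0, 38.2 and 29.95 CPM in 8 h warm seeds, and 46.7, 44.2 and 40.3 CPM in 36 h cold seeds. It was thus close to the limit of counting in JY1605 outside the peaks, with 14 counts over the 3 dry libraries. In JY1621 the dry libraries held 0.667, 0.187 and 0.557 CPM, and the peak libraries 60.0, 55.3 and 58.3 CPM in 8 h warm seeds and 60.3, 49.7 and 60.5 CPM in 36 h cold seeds. In 8 h cold seeds it held 3.12, 6.51 and 2.37 CPM there, and in 36 h warm seeds 8.31, 10.4 and 9.9996 CPM. These 2 low groups did not overlap those of JY1605. JY1621 was higher in 36 h warm seeds by 3.43 ± 0.292 on the log2 scale (SE, edgeR quasi-likelihood test, adjusted p = 1.92e-10) and in 8 h cold seeds by 1.98 ± 0.383 (edgeR adjusted p = 0.000158).

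BnaA06G0431800ZS, on A06, had the next score, 2.28, and was higher in JY1621 in all 5 conditions. In 8 h warm seeds it held 152.1, 152.2 and 139.9 CPM in JY1605 and 432, 458 and 399 CPM in JY1621. Its 36 h cold libraries held 176, 167 and 156 CPM in JY1605 and 375, 379 and 395 CPM in JY1621. In 8 h cold seeds it stood at 2.89, 2.66 and 3.50 CPM in JY1605, close to the 3.45, 4.25 and 3.93 CPM of the dry libraries. In JY1621 it stood at 36.3, 37.1 and 37.0 CPM in 8 h cold seeds, above the 13.6, 14.2 and 17.9 CPM of the dry libraries. No libraries of the genotypes overlapped in any of these conditions. The log2 difference between the genotypes was 1.59 ± 0.0877 in 8 h warm seeds (SE, edgeR adjusted p = 1.23e-19) and 3.42 ± 0.123 in 8 h cold seeds (edgeR adjusted p = 8.08e-26).

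**Figure D3:**
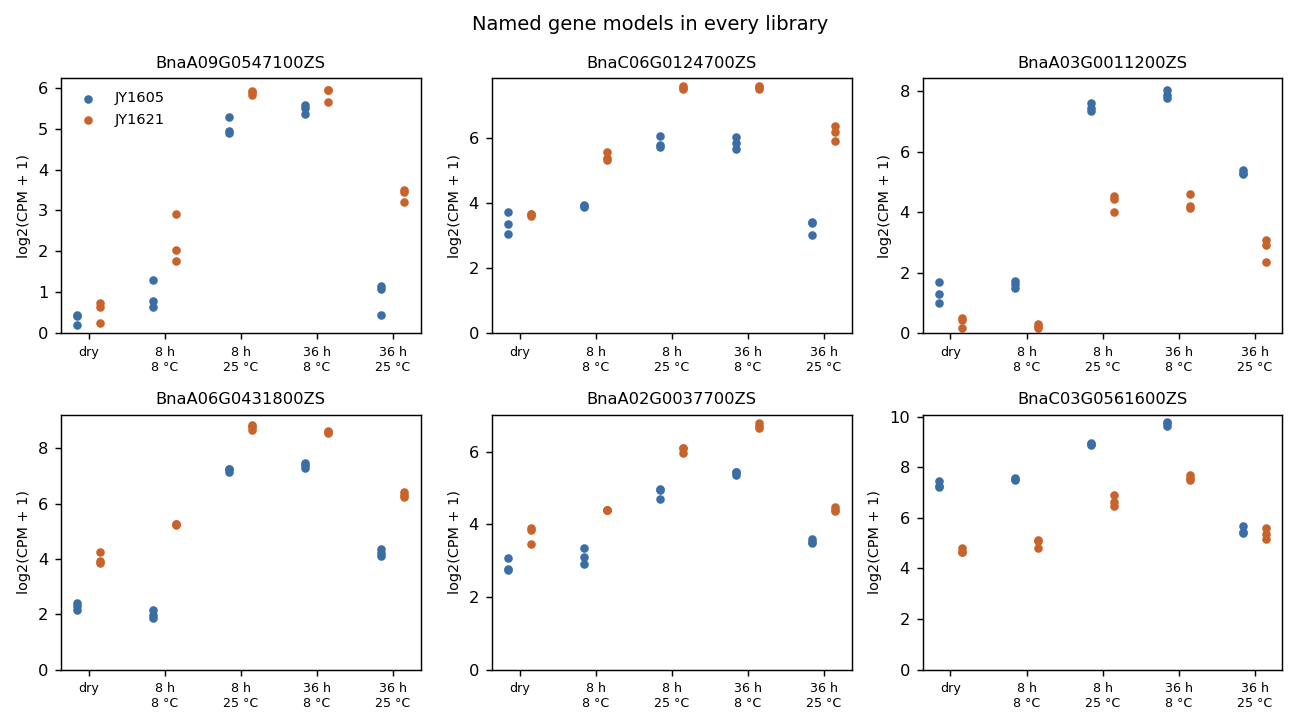
CPM of the 6 gene models named by ID in each of the 30 libraries, as log2 of CPM plus 1, for JY1605 (blue) and JY1621 (orange). The left column holds the 2 highest scores, the middle column 2 members higher in JY1621 at both peaks and the right column 2 lower there; the peaks lie at 8 h 25 °C and 36 h 8 °C in every panel.

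How the genotypes differed within a condition was not used to choose the members and was tested. The levels in each condition were used, though, and a gene model low at the peaks in either genotype could not become a member. A member was called at an adjusted p under 0.05 (edgeR, Benjamini-Hochberg over 57945 gene models) with a log2 fold change of at least 1 in size, and all 200 members were among those tested. In 8 h warm seeds, 10 members were higher and 9 lower in JY1621, 5% and 4.5% of them, where 12.9% and 11.6% of all tested gene models were. In 36 h cold seeds, 5 were higher and 13 lower, 2.5% and 6.5%, where 12.1% and 12.8% of all were. Among the 18840 gene models that met the level and 2-fold conditions, which likewise had to be present in both genotypes, 5.17% were higher and 4.21% lower in 8 h warm seeds, and 4.38% and 4.54% in 36 h cold seeds. Read against these, the members differed between genotypes at their peaks about as often as other gene models at such levels. The median log2 difference over the members was -0.01 in 8 h warm seeds and -0.09 in 36 h cold seeds.

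After the peak, in 36 h warm seeds, the genotypes differed. Of the 200 members, 95 were higher in JY1621 and 3 lower, 47.5% and 1.5%, whereas 21.1% of all tested gene models were higher and 27% lower. The median log2 difference over the members was 0.94, with quartiles of 0.34 and 1.59, against -0.13 over all tested gene models, and 174 members lay above 0. Among the 18840 gene models that met the level and 2-fold conditions, 19.8% were higher and 7.43% lower, with a median of 0.23. The 224 gene models that passed every threshold of the rule with a lower score held 95 higher and 4 lower calls, 42.4% and 1.79%. With scaling by library size alone the median over the members was 0.87, and the DESeq2 Wald test called 89 higher and 3 lower. Without the deepest library, which belongs to this group, 84 were higher. The rule used these levels: it held both genotypes below their own peaks in 36 h warm seeds, and so limits how high either could stand. A fall after 8 h was thus required in JY1605 as in JY1621, and the difference between them is limited by that choice. The 224 gene models met the same requirement and the 18840 did not have to, so neither shows how far the choice shaped these counts.

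**Figure D4:**
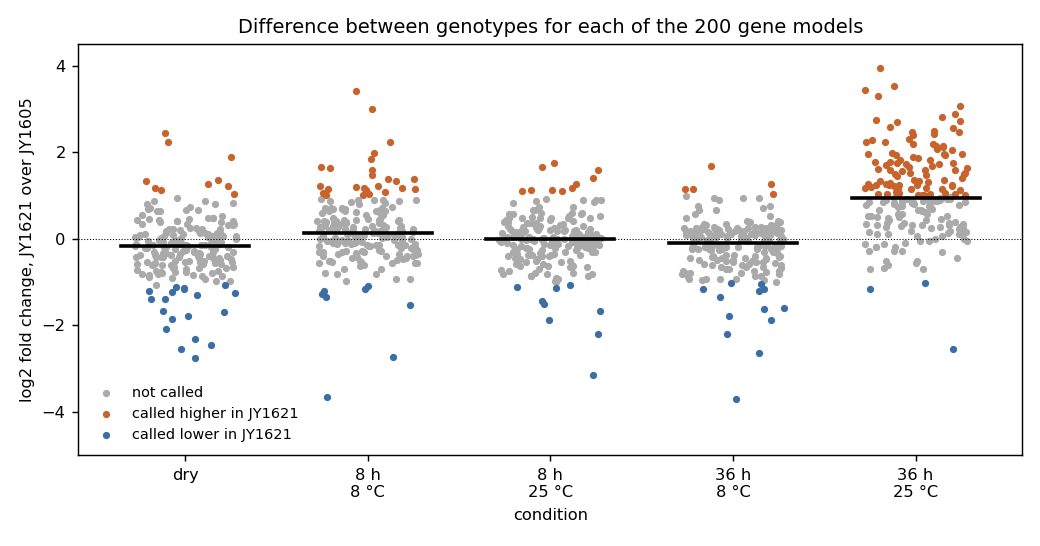
Log2 fold change of JY1621 over JY1605 for each of the 200 gene models in the 5 conditions, coloured where called by edgeR, with the median as a bar. The median is 0.94 at 36 h and 25 °C and between -0.18 and 0.14 in the other conditions.

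In dry seeds 10 members were higher and 19 lower in JY1621, where 10.8% and 9.52% of all tested gene models were, and the median was -0.18. In 8 h cold seeds 25 were higher and 8 lower, where 12.1% and 8.89% of all were, and the median was 0.14. Among gene models that met the level and 2-fold conditions, 4.67% were higher and 5.4% lower in dry seeds, and 4.89% and 5.03% in 8 h cold seeds. The 12.5% of members higher in 8 h cold seeds was thus above that share and close to that of all gene models. Across the 200 members the genotype differences at the 2 peaks, which share no library, correlated at 0.829 (Pearson), and those in 8 h warm seeds and in 36 h warm seeds at 0.636. The rule held the peaks within 2-fold of each other in both genotypes. It thereby ties the differences at the 2 peaks to each other, so the first value is a description. Over all 57945 gene models these were 0.807 and 0.577, and genes are not independent replicates.

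Of the members called higher in JY1621 at both peaks, BnaC06G0124700ZS, on C06, had the largest smaller difference of the 2. In 8 h warm seeds it held 51.9, 65.7 and 54.2 CPM in JY1605 and 181, 189.6 and 183 CPM in JY1621. In 36 h cold seeds it held 49.0, 56.5 and 63.9 CPM in JY1605 and 188, 192 and 179 CPM in JY1621, so that the genotypes did not overlap at either peak. In dry seeds they did, with 7.19, 12.1 and 9.12 CPM in JY1605 and 11.1, 11.7 and 11.6 CPM in JY1621. The log2 difference was 1.74 ± 0.121 in 8 h warm seeds (SE, edgeR adjusted p = 7.84e-14), 1.68 ± 0.120 in 36 h cold seeds (edgeR adjusted p = 1.36e-13) and 0.17 ± 0.154 in dry seeds (edgeR adjusted p = 0.413). BnaA02G0037700ZS, on A02, held 25.0, 29.5 and 30.4 CPM in JY1605 and 61.2, 67.9 and 67.7 CPM in JY1621 in 8 h warm seeds. Of the 36 h cold libraries, those of JY1605 held 40.3, 42.6 and 42.0 CPM and those of JY1621 102.5, 99.0 and 110.5 CPM, again with no overlap. Its log2 differences were 1.27 ± 0.0994 and 1.27 ± 0.0958 (SE, edgeR adjusted p = 1.32e-14 and 2.84e-15).

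Of those lower in JY1621, BnaA03G0011200ZS, on A03, held 161, 195 and 174 CPM in JY1605 and 22.2, 15.1 and 20.7 CPM in JY1621 in 8 h warm seeds. The 36 h cold libraries held 235, 217 and 261 CPM in JY1605 and 17.6, 16.6 and 23.4 CPM in JY1621. It was called lower in JY1621 in all 5 conditions, by -3.15 ± 0.162 in 8 h warm seeds and -3.70 ± 0.163 in 36 h cold seeds (log2, SE; edgeR adjusted p = 8.10e-15 and 2.71e-16). BnaC03G0561600ZS, on C03, held 474, 481 and 496 CPM in JY1605 and 86.7, 97.3 and 119.7 CPM in JY1621 in 8 h warm seeds. In 36 h cold seeds it held 892, 798 and 849.9 CPM in JY1605 and 189.9, 181 and 205 CPM in JY1621. The differences were -2.21 ± 0.109 and -2.19 ± 0.108 (log2, SE; edgeR adjusted p = 1.75e-19 and 1.33e-19). In 36 h warm seeds it held 43.0, 49.5 and 40.9 CPM in JY1605 and 47.4, 34.96 and 40.6 CPM in JY1621, where the libraries overlapped and the difference was -0.05 ± 0.109 (edgeR adjusted p = 0.709). Reads of homoeologous copies on the A and C subgenomes may be counted for one another, so that a difference of one copy may hold reads of the other.

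The level reached after the peak, in 36 h warm seeds, was then set against dry seeds. Both levels entered the rule, which held each of them below the peaks and so kept out gene models that rise far by 36 h in the warm; the values are therefore limited by the choice of members. In JY1605, 25 members were higher than in dry seeds and 77 lower, 12.5% and 38.5%, where 36.6% of all tested gene models passed upward and 24.8% downward. In JY1621, 59 were higher and 3 lower, 29.5% and 1.5%, where 26.2% and 20% of all were. The medians were -0.49 and 0.45 on the log2 scale, against 0.36 and 0.18 over all tested gene models. Gene models that met the level and 2-fold conditions had medians of -0.03 and 0.19, and of them 22.6% rose and 25.2% fell in JY1605, while 22.5% rose and 13.9% fell in JY1621. With scaling by library size alone, JY1605 had 43 members above dry seeds and 39 below, and JY1621 had 95 above and 1 below. The medians then became 0.17 and 0.94, while those of all tested gene models moved to 1.02 and 0.67, so the direction in JY1605 depends on the scaling. The share of lower calls depends on the choice of members: of 200 chosen on TMM-scaled levels, 34 were higher and 45 lower in JY1605, 17% and 22.5%, with a median of -0.13. That share was not above the one of all tested gene models. In JY1621, 81 of those 200 were higher, 40.5%, with a median of 0.80.

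The difference of that change between the genotypes was tested directly. All levels in it entered the rule, so it is limited by the choice of members in the same way. For 116 members the change from dry seeds to 36 h warm seeds was higher in JY1621 and for 1 it was lower, 58% and 0.5%, where 18.7% and 18.4% of all tested gene models were called. Among gene models that met the level and 2-fold conditions 23.1% and 9.08% were called. The comparison of genotypes in 36 h warm seeds used the same 36 h warm libraries. Of its 95 members higher in JY1621, 78 were among these 116. The median over the members was 1.23, with 182 above 0, and was 1.06 with scaling by library size alone. Of the 200 chosen on TMM-scaled levels, 104 were called higher and 1 lower, 52% and 0.5%. BnaC03G0561600ZS fell in JY1605 by 2.49 ± 0.112 on the log2 scale (SE, edgeR adjusted p = 8.44e-22), from 176, 148 and 153 CPM in the dry libraries. In JY1621, where the dry libraries held 24.3, 24.2 and 27.0 CPM, its change was 0.22 ± 0.113 (edgeR adjusted p = 0.0799). BnaC06G0124700ZS rose in JY1621 by 2.12 ± 0.135 (edgeR adjusted p = 2.36e-15), to 71.6, 58.5 and 80.7 CPM, while in JY1605 it stood at 7.003, 9.38 and 9.65 CPM, a change of -0.78 ± 0.153 (edgeR adjusted p = 2.67e-05) that is under the fold minimum. The member with the lower change in JY1621 was BnaA03G0391300ZS, on A03, named after its values were seen, at -1.003 ± 0.357 (edgeR adjusted p = 0.0162), just past the fold minimum. That count of 1 became 2 without dry replicate 2 of JY1605, and 0 without dry replicate 3 or 36 h warm replicate 1 or 2 of JY1605, or 36 h warm replicate 2 of JY1621.

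**Figure D5:**
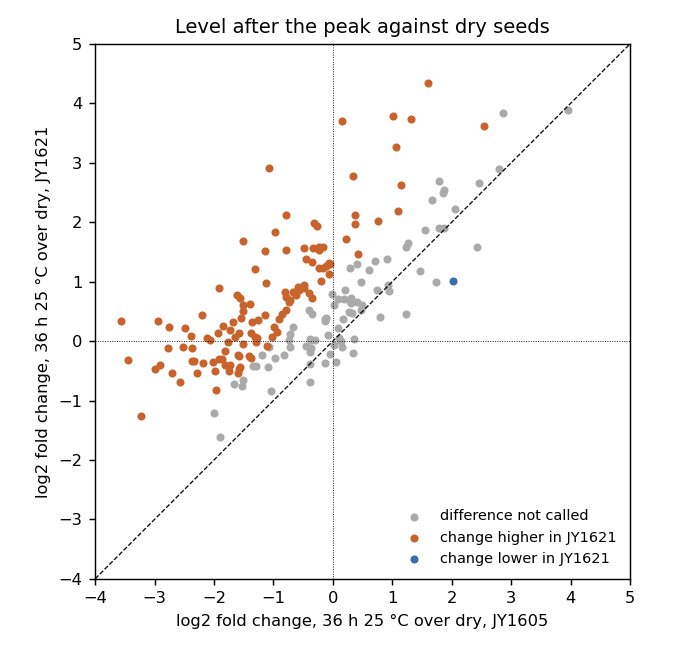
Log2 fold change of 36 h 25 °C over dry seeds for each of the 200 gene models, in JY1605 (horizontal) and JY1621 (vertical), coloured where the difference of the 2 changes was called by edgeR. The axes share no library, the dashed line marks equal changes, and 182 members lie above it.

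The other pair of low groups was the 8 h cold seeds and dry seeds; within a genotype this comparison shares its dry libraries with the one before, and the rule held both levels below the peaks here too. In JY1621, 46 members were higher in the cold seeds, 23%, where 6.01% of all tested gene models were, and 14 were higher in JY1605, 7%, where 2.98% of all were. No member was called lower by edgeR in either genotype, where 0.423% of all tested gene models were in JY1605 and 0.48% in JY1621; at an unadjusted p under 0.05, 9 and 11 were lower, and the DESeq2 Wald test called 0 in both. The median log2 changes were 0.11 and 0.42. The count of JY1605 depends on the processing and on single libraries: it was 6 with DESeq2's factors, 7 with the DESeq2 Wald test, and 7 and 8 without dry replicates 1 and 2. It was 9 without replicate 1 or replicate 2 in 8 h cold seeds.

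For the 46 members higher in JY1621 the median level, in TMM-scaled CPM, was 2.73 in dry seeds, 7.62 in 8 h cold seeds and 30.4 in 8 h warm seeds. For the 14 in JY1605 it was 1.19, 3.12 and 17.8. Tested directly, the change was higher in JY1621 for 22 members, 11%, where 1.19% of all tested gene models were, and edgeR called 0 lower, where 0.395% of all were. Among gene models that met the level and 2-fold conditions, 1.45% were called higher and 0.382% lower. At an unadjusted p under 0.05, 6 members were lower, and DESeq2 called 0. The 22 became 14 without dry replicate 1 of JY1605, or without replicate 2 of JY1621 in 8 h cold seeds. BnaA06G0431800ZS rose in JY1621 by 1.06 ± 0.0992 (log2, SE; edgeR adjusted p = 1.84e-11), while its change in JY1605 was -0.47 ± 0.157 (edgeR adjusted p = 0.038), under the fold minimum. BnaA09G0547100ZS rose in JY1621 by 2.83 ± 0.435 (edgeR adjusted p = 3.68e-05), and its change in JY1605 was 1.51 ± 0.678 (edgeR adjusted p = 0.16).

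The position of the members was not used to choose them. The IDs place 96 on the A subgenome and 104 on the C subgenome, 48% and 52%, where 47.6% and 50.3% of tested gene models lie. None was on an unplaced scaffold, where 1203 of the 57945 tested gene models are. All 19 chromosomes held members, from 4 of 2656 tested gene models on A01 to 18 of 4711 on C03, and A06 held 15 of 2891. The members were mostly scattered: only 4 pairs lay within 5 gene models of each other, on A02, A06, C01 and C05, and those on A02 and C01 were direct neighbours. Of 245 other tested gene models next to a member, 3 had a score of at least 1, 1.22%, where 0.972% of all tested gene models had. Their median score was -0.63, and that of all tested gene models was -0.79.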

How the data were processed

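The authors deposited raw, whole-number counts of 30 libraries in a single table. The tools listed are HISAT2 2.2.1, featureCounts 2.0.6 and DESeq2 1.42.0, per the submitters' processing notes. Not given in the sources used here are the genome build, the strand setting and the rule for reads that match several places. Whether replicates came from separate seed lots is not stated, so p-values measure the spread between these libraries, which may be technical.

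CPM used the total count of each library. Comparisons were tested with edgeR 4.0.16 (R 4.3.3; robust quasi-likelihood fit of all libraries, 10 group means, TMM factors), on the 57945 gene models kept by filterByExpr (minimum count 10, minimum total 15). A standard error is the size of the log2 fold change over the root of F. The edgeR fit and its calls were tried on simulated counts, for JY1621 against JY1605 in 36 h warm seeds. The choice of members and the other comparisons were not. Library depth, 14250480 to 78251632 counts, limits precision mainly where a group holds few counts.

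Named by ID are the 2 highest scores and, among members called in 1 direction at both peaks, the 2 per direction with the largest smaller difference between genotypes. The members and tests were chosen with earlier results of these data known. The tests of the difference of changes between genotypes, and the background of 18840 gene models, were added after the data were seen. Alternatives were other scaling, filters, tools and selections, a replicate block, and leaving out libraries.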

Additional observations from a re-analysis of the deposited data

Results flagged for a closer look

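All levels in the shifts below entered the rule, so the shifts are limited by the choice of members. By the test of the difference itself, the shift of 36 h warm seeds against dry ones was higher in JY1621 for 116 members and lower for 1. Of the members named by rule, this difference (JY1621 minus JY1605, log2) was 2.78 for BnaA09G0547100ZS, 2.91 for BnaC06G0124700ZS and 2.71 for BnaC03G0561600ZS. For BnaA09G0547100ZS the call was lost without dry replicate 1 or 2 of JY1605 (edgeR adjusted p = 0.0824 and 0.0771), where the 3 dry libraries hold 14 counts together.

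The shift of 8 h cold seeds against dry ones was higher in JY1621 for 22 members. It was 1.53 for BnaA06G0431800ZS and 1.20 for BnaC06G0124700ZS, which fell just under the fold minimum, at 0.99, without dry replicate 2 of JY1605.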

How the results depend on the processing

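The choice of members depends on the scaling. On TMM-scaled CPM the rule kept 136 of the 200, 68% of each list, and on CPM with DESeq2's factors 131, which is 65.5% of the 200 and 70.4% of the 186 gene models that then passed. Leaving out 1 replicate number from every group kept 170 to 176, a pseudocount of 0.5 kept 191 and group medians 177. Every member kept a score above 0 under each of these, which a choice of the highest scores makes likely. Of the 200, 138 still passed every threshold of the rule on TMM-scaled CPM and 131 with DESeq2's factors. Under the other alternatives 193 to 200 did.

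With no fold minimum more members were called. JY1621 was then higher and lower for 27 and 72 in dry seeds, 51 and 54 in 8 h warm seeds, 155 and 16 in 36 h warm seeds, 69 and 40 in 8 h cold seeds, and 38 and 71 in 36 h cold seeds. Against dry seeds, 8 h cold seeds gave 38 and 1 in JY1605 and 105 and 7 in JY1621, and 36 h warm seeds gave 43 higher in JY1605 and 113 and 38 in JY1621. The difference of changes gave 40 higher and 0 lower in 8 h cold seeds, and 146 higher and 4 lower in 36 h warm seeds.

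With library size scaling only, 35 members were higher and 5 lower in JY1621 in 8 h cold seeds. In 8 h cold seeds against dry ones, 64 were higher and 0 lower in JY1621. In 36 h warm seeds against dry ones, 43 were higher and 39 lower in JY1605, 95 higher and 1 lower in JY1621, and the difference of changes was lower for 2. The median of all tested gene models moved with that scaling from 0 to 0.19 between genotypes in 8 h cold seeds, from -0.02 to 0.15 for 8 h cold seeds against dry ones in JY1621, and from -0.13 to -0.30 for the difference of changes in 36 h warm seeds. The cause of these moves was not tested. With DESeq2's factors 6 members, and with the DESeq2 Wald test 7, were higher in 8 h cold seeds in JY1605. Members chosen on TMM-scaled CPM, an alternative added after the data were seen, gave 45 lower in 36 h warm seeds against dry ones in JY1605 and 0 in JY1621, and 91 higher and 3 lower in JY1621 against JY1605 in 36 h warm seeds. A fit of only the groups compared gave 122 higher and 0 lower for the difference of changes in 36 h warm seeds.

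Without 1 library, the members higher in 8 h cold seeds than in dry ones in JY1605 numbered 7 to 13. The difference of that change between genotypes was higher for 14 to 23. The difference of changes in 36 h warm seeds was higher for 107 to 120 and lower for 0 to 2. The 95 higher in JY1621 in 36 h warm seeds ranged from 84, without the deepest library, to 105.

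The replicate numbers did not pair the libraries: over 27 correlations of same-numbered deviations in 9 comparisons, values ran from -0.09 to 0.10. With the replicate block, 94 members were higher in JY1621 in 36 h warm seeds, and no count moved by over 1.5 times. Of 498 recomputed values of named members, 489 kept their call, 9 lost it and 0 changed direction. Differences under about 1 on the log2 scale are least certain for members with few counts in the low groups.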
